A study of Mus musculus with 6 samples.

Results

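The Hedgehog pathway was examined in TM3 cells through 9 genes: the ligand gene Dhh, the receptor genes Ptch1 and Boc, the signal transducer Smo, the negative regulator Sufu, the transcription factors Gli1, Gli2 and Gli3, and the ligand-binding inhibitor Hhip. Members were found by matching the RefSeq accession that the array design gives for each probe to the gene symbol, which gave 13 probes for the 9 genes, out of 23462 genes named on the array. TM3 is an established line from mouse testis, labelled as male testicular somatic cells and known as a Leydig cell model. Control cells were kept for 24 h at 0 µM 4-nitrophenol (PNP), a phenol carrying a nitro group that is formed from parathion and occurs in diesel exhaust, and treated cells received 10 µM for 24 h. Each group held 3 samples, each on its own single-colour Agilent array. The labels do not say whether the replicates were separate cultures. Each p-value therefore sets a difference against a spread between samples that may be technical.

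Hedgehog ligands are secreted proteins that bind Patched receptors. Without ligand, Patched keeps Smoothened inactive; with ligand, Smoothened gathers in the primary cilium, Sufu lets go of the Gli proteins, and full-length Gli2 and Gli3 switch genes on in place of their shortened repressor forms. In the testis the ligand is Desert hedgehog, made by Sertoli cells, and Leydig cells and their precursors are among the cells that answer it. Gli1, Ptch1 and Hhip are themselves Gli target genes in many tissues, so their transcripts are commonly read as the output of the pathway, while Smo, Sufu, Gli2 and Gli3 are its machinery.

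The comparison asked whether 24 h of PNP moved any of these transcripts. Transcripts of the machinery were found in TM3 cells with and without PNP: Smo, Sufu, Gli1, Gli2, Gli3, Boc and Ptch1 each had a probe well above background on all 6 arrays, by the flag that the scanner software sets for each spot. Dhh and Hhip had no probe above background on any array. Of the 9 members, 6 could be tested, and 0 passed an adjusted p of 0.05 with limma, where 0 of all 13138 genes tested (0%) passed and 856 had an unadjusted p below 0.05. The member of smallest p was Ptch1, with a log2 difference of 0.24, PNP minus control (95% interval 0.01 to 0.47), and the widest difference was that of Gli1, at -0.42 (95% interval -1.01 to 0.17). Values below are scaled log2 signals, the log2 processed signal minus the array's 75th percentile over all non-control spots, and they compare arrays for 1 probe, never 1 gene with another.

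Technical measures differed between the arrays. All 6 lay on 1 slide and were read in 1 scan, in slide columns 1 to 4, and the even columns held 1 control array (replicate 2) and 2 PNP arrays (replicates 1 and 3). Spots well above background made up from 59.9% to 62.6% of an array, with no difference between groups beyond their spread (two-sided exact permutation test, p = 0.9). Spots marked by the software as outliers made up 7.75% ± 1.27 (SD, n = 3) of control arrays but 12.3% ± 0.814 (SD, n = 3) of PNP arrays, and the 75th percentile of log2 signal was 12.44 ± 0.06 and 12.27 ± 0.12; both gave an exact permutation p of 0.1, the smallest that 3 against 3 allows. PNP replicate 1 had the lowest share above background (59.9%), the lowest 75th percentile (12.14) and the lowest median log2 signal (8.30) of the 6 arrays. Outlier spots were left out of the tests. Among the 9 member probes above background, 0 of 27 control spots and 5 of 27 PNP spots were so marked: 3 of Smo, 1 of Gli1 and 1 of Gli3.

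The Leydig label was set against marker genes. Of 10 Leydig markers, 9 had a named probe and 5 were above background in a group: Star, Cyp17a1, Nr5a1, Scarb1 and Pdgfra. Cyp11a1, the first enzyme of steroid synthesis, Lhcgr, the luteinizing hormone receptor, and Hsd17b3 were above background on no array, and Hsd3b1 on at most 1. Of 10 Sertoli markers 5 were above background (Sox9, Dmrt1, Rhox5, Wt1 and Clu), while Amh, Fshr, Gata1, Cldn11 and Aqp8 were not on any array. All 5 peritubular myoid markers, 4 of 5 macrophage markers (not Adgre1), 4 of 7 germ cell markers and 1 of 5 endothelial markers were above background in a group. For each list the scaled signals of all its probes were summed on the linear scale, outlier spots kept. The log2 of that sum is given, in which bright probes weigh most. For the Leydig markers it ran from 3.21 to 3.33 on control arrays and from 3.17 to 3.29 on PNP arrays. For the Sertoli markers it ran from 3.05 to 3.32 and from 3.24 to 3.47. Both overlapped, as did the sums of the myoid, germ cell and macrophage markers. The endothelial sum ran from -4.21 to -3.88 on control arrays and from -3.83 to -3.78 on PNP arrays, without overlap. It took in all 5 markers, most of them below background. Over the 6 lists, 0 markers passed the test, as did 0% of all genes. At an unadjusted p below 0.05 (limma) were 1 of 5 tested Leydig markers and 1 of 4 tested Sertoli markers. The other lists had 0, and of all 13138 genes 856 were below it. The samples are labelled as a single cell line, so marker signal here does not show that other cell types were present. Whether other cell types had a part in the results was not tested. In such bulk RNA fewer cells of a type and less RNA per cell cannot be told apart.

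Dhh, the ligand, gave no signal that could be compared. Its processed signals were 24.7, 33.2 and 61.2 on control arrays and 23.1, 24.6 and 24.5 on PNP arrays, where the lowest signal counted as well above background was between 112 and 120, depending on the array. Control replicate 3 was the highest of the 6, and it too lay below that mark. A transcript under the reach of this probe would look the same, so these values do not show absence.

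Hhip codes for a membrane protein that soaks up Hedgehog ligands and is a Gli target. Its 2 probes had processed signals from 24.5 to 28.7 and from 26.0 to 29.6 over the 6 arrays, all far below that mark. No fold was drawn for Dhh or Hhip, since both groups were below background.

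**Figure D1:**
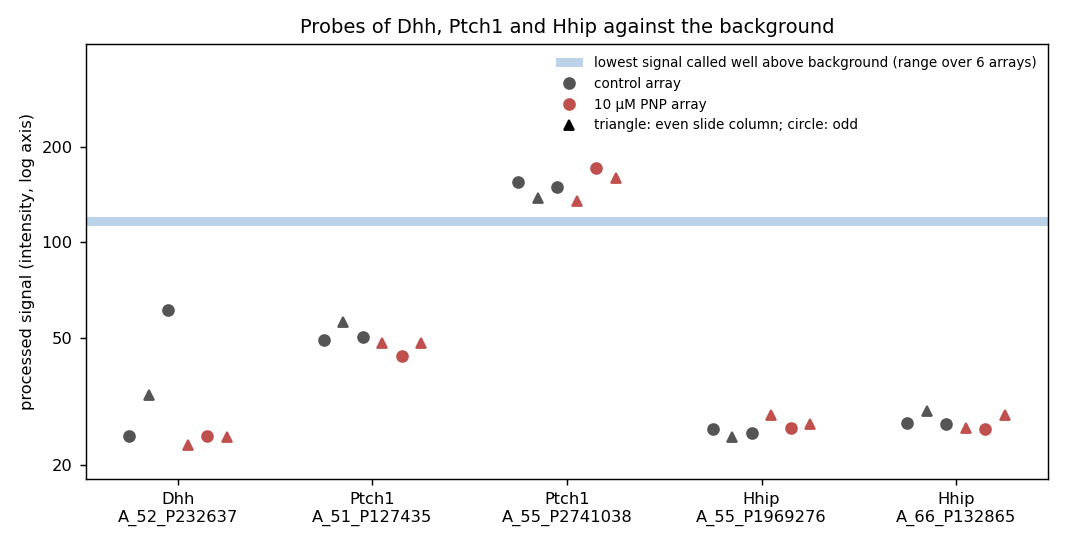
Processed signal (intensity, log axis) of every probe of Dhh, Ptch1 and Hhip, with a point for each of the 3 control arrays (grey) and 3 PNP arrays (red), circles for odd and triangles for even slide columns. The blue band marks the lowest signal called well above background, from 112 to 120 over the arrays; the Ptch1 probe A_55_P2741038 lies above it on all 6 arrays, and the probes of Dhh and Hhip and the other Ptch1 probe lie below it.

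Ptch1, the receptor that holds Smoothened in check, had scaled log2 signals of -5.11, -5.33 and -5.28 in controls and -5.06, -4.94 and -4.98 with PNP. The PNP arrays were all higher than the controls, with a gap of 0.05 between the nearest values. The means were -5.24 ± 0.11 (SD, n = 3) and -5.00 ± 0.06 (SD, n = 3), a difference of 0.24 (SE 0.10), or 1.18-fold, with an unadjusted p of 0.0394 and an adjusted p of 0.740 with limma. It was the 685th smallest p of the 13138 genes. At an unadjusted p below 0.05, 1 of the 6 tested members was higher and 0 were lower, against 5.02% of all genes higher and 1.49% lower.

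The Ptch1 value lies close to the background and moved with the normalization and background correction. Before scaling, the 3 control arrays read 155, 138 and 150 and the 3 PNP arrays 135, 172 and 159, so the groups overlapped. PNP replicate 1 was the lowest of the 6 before scaling. The difference was 0.18 under median scaling, 0.14 with quantile normalization, 0.14 in the table of normalized values that the authors deposited and 0.04 with another background correction (normexp), each with an unadjusted p above 0.05. Against the median of all genes in the same setting it was 0.20 as reported, 0.20 under median scaling, 0.13 with quantile normalization, 0.13 with the authors' deposited values and -0.02 with normexp. Leaving out control replicate 2 or 3 or PNP replicate 2 or 3 also took the p above 0.05, with differences from 0.20 to 0.24. Within odd slide columns it was 0.25 (2 control arrays, 1 PNP array) and within even columns 0.31 (1 control array, 2 PNP arrays). The other Ptch1 probe, A_51_P127435, was below background on every array, at 44.0 to 56.2.

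The Ptch1 and Hhip promoters are shown because both are Gli target genes in many tissues. Whether promoter sequence had a part in their detection was not tested. Of 2 Ptch1 probes, 1 was above background on all 6 arrays, near that level. The other Ptch1 probe and the 2 Hhip probes were above it on none. The sequences are RefSeq's, from assembly GRCm38.p6, and give the 250 bases before the annotated start, 5′ to 3′ on the minus strand, which is the strand of both genes. Ptch1 lies at chr13:63565736-63565985 and Hhip at chr8:80058009-80058258. Capitals would mark the core motif GACCAC of a Gli site, and neither sequence holds it.
Ptch1: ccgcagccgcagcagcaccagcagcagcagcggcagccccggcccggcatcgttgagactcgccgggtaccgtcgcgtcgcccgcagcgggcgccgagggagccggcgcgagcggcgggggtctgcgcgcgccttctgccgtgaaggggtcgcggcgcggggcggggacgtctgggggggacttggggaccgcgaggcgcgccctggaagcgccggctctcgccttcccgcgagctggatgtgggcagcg
Hhip: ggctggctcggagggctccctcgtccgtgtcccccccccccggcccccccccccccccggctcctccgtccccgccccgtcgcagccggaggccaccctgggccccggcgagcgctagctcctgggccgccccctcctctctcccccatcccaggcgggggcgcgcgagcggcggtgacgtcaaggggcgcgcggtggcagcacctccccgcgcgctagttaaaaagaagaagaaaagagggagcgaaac

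The Gli consensus GACCACCCA was searched on both strands of the windows of 300 bases (250 before and 50 after a start) that were at hand for 7 of the members, all but Gli1 and Boc. It was in 0 of these 7 windows and in 0.253% of all 32851 such windows. Its first 6 bases, GACCAC, which lie within the consensus, were in 2 of the 7, those of Dhh and Gli3, and in 11.6% of all windows. The match and its surroundings read, with GACCAC in capitals:
Dhh: ggcggggcccggGACCACttaaggcggagt
Gli3: agagcagagtctGACCACatctgtgaaaac
A match is a run of letters, not a bound site, and Gli binding was not measured here. That the windows of Ptch1 and Hhip lack these letters says nothing of sites outside them.

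Boc, a cell-surface co-receptor for Hedgehog ligands, had scaled log2 signals of -0.78, -0.24 and -0.45 in controls and -0.23, -0.67 and -0.35 with PNP. The groups overlapped throughout, and the difference was 0.07 (SE 0.17, adjusted p = 0.963). The lowest value of each group was on an array of slide column 1. The even columns exceeded the odd ones by 0.38 in controls and by 0.38 with PNP, and within columns the PNP difference was -0.06 (odd) and -0.05 (even). The odd value rests on 2 control arrays and 1 PNP array, and the even value on 1 control array and 2 PNP arrays. With slide column as a block the difference was -0.053 (SE 0.12). It ran from -0.072 to 0.20 when each array was left out in turn. Whether slide column had a part in the Boc values was not tested.

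Smo, the seven-pass membrane protein that passes the signal inward, was well above background on all 6 arrays. All 3 of its PNP spots were marked as non-uniform, so it had no tested value under the rules used. With those spots kept, it had scaled log2 signals of 2.41, 2.54 and 2.50 on the control arrays, against 2.38, 2.58 and 2.60 on the PNP arrays. PNP replicate 1 was the lowest and PNP replicate 3 the highest of the 6. The difference was then 0.03 (95% interval -0.20 to 0.27, adjusted p = 0.969 with limma).

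Sufu binds Gli proteins and restrains them. Its brightest probe had scaled log2 signals of -0.39, -0.29 and -0.13 in controls and -0.18, -0.33 and -0.49 with PNP, overlapping, and a difference of -0.06 (SE 0.12, adjusted p = 0.958). Its dimmer probes pointed the other way: A_51_P396550 stood at 0.14 (SE 0.12) and A_52_P603184 at 0.15 (SE 0.11). Of the 8 member probes tested one by one, 0 passed, as did 0% of all 27222 probes tested. The Sufu difference was 0.07 when its 3 probes were averaged, so its direction is not settled by these arrays.

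Gli1, the transcriptional activator whose own transcript is the usual readout of Hedgehog activity, had scaled log2 signals of -2.12, -2.40 and -1.96 in controls. With PNP it had -3.00 on replicate 1 and -2.15 on replicate 2, and the replicate 3 spot was marked as an outlier. Replicate 1 was far below the other values and replicate 2 lay among the controls. The means were -2.16 ± 0.22 (SD, n = 3) and -2.58 ± 0.60 (SD, n = 2), a difference of -0.42 (SE 0.25, adjusted p = 0.871). Its interval was narrower than that of only 3.43% of all genes tested, and it was the only tested member whose interval held a 2-fold change.

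The Gli1 difference rested on PNP replicate 1, the array with the lowest 75th percentile of signal. Without that array it was 0.0070, a fit in which replicate 2 is the lone PNP value. Without PNP replicate 2 it was -0.84, a fit in which replicate 1 is the lone PNP value. With the outlier spot kept, replicate 3 had -2.29, also within the control range, and the difference was -0.32 (95% interval -0.83 to 0.18). Gli1 was lower in even slide columns in each group, by 0.35 in controls (-0.35) and by 0.85 with PNP (-0.85), and the PNP difference was -0.11 within odd columns and -0.61 within even ones. Each of these within-column values for PNP is 1 array.

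Gli2, the chief activator downstream of Smoothened, had the smallest difference of the tested members. It gave -0.36, -0.39 and -0.55 in controls and -0.40, -0.36 and -0.57 with PNP on the scaled log2 scale. Each group had a lone lower array, control replicate 3 and PNP replicate 3. The difference was -0.0069 (SE 0.10, adjusted p = 0.997), and the 95% interval ran from 0.844-fold to 1.17-fold.

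Gli3, which acts mostly as a repressor where ligand is lacking, had 1.57, 1.49 and 1.51 in controls and, on the arrays used, 1.37 and 1.49 with PNP. The PNP values were both below the controls, by a gap of 0.0056, and the difference was -0.10 (SE 0.11, adjusted p = 0.946). The spot left out, on PNP replicate 2, read 1.67, above every control, and with it the groups overlapped and the difference was -0.014 (SE 0.11). Of the tested members, 1 (Ptch1) lay wholly above the controls with PNP and 1 (Gli3) wholly below, where 9.66% of all genes lay wholly above and 3.75% wholly below.

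**Figure D2:**
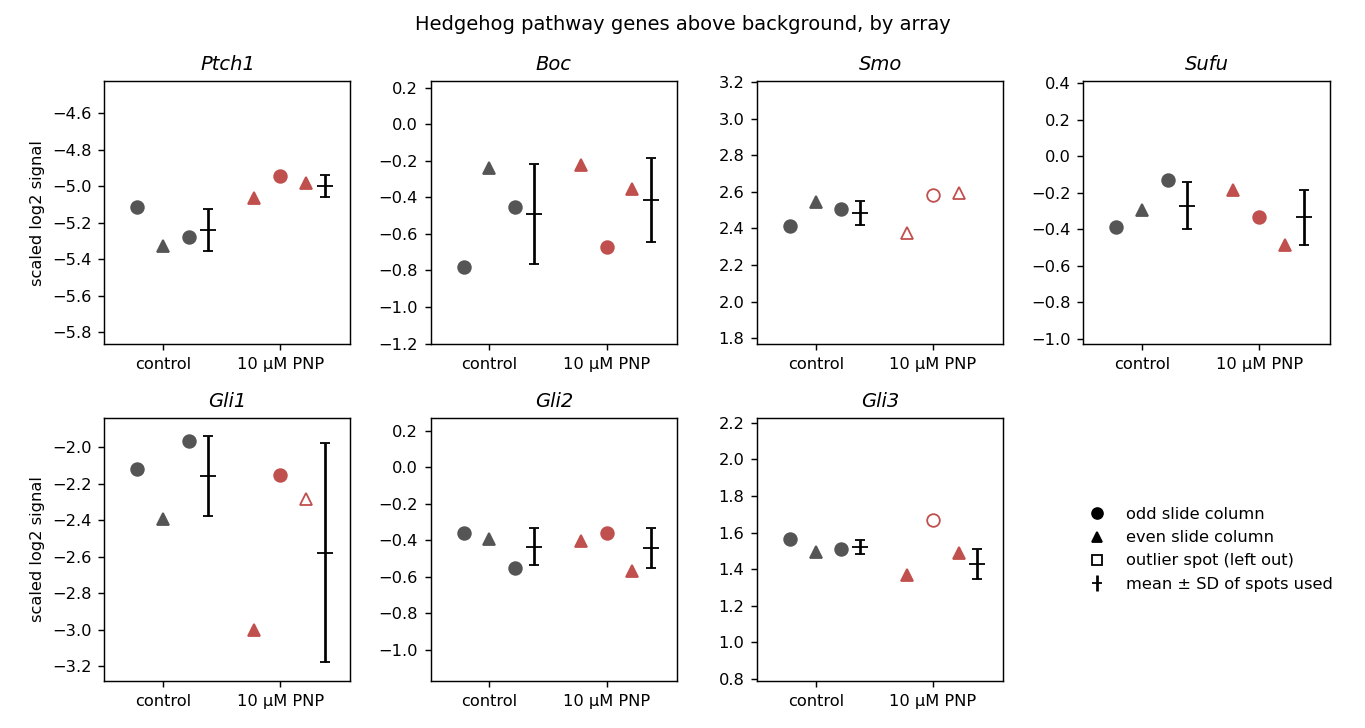
Scaled log2 signal of the 7 members above background, 1 point per array (grey, control; red, 10 µM PNP), with circles for odd and triangles for even slide columns, open symbols for outlier spots, and the mean ± SD of the spots used at the right of each group; each panel spans the same range of log2 units. Ptch1 is higher on every PNP array, Gli1 is low on PNP replicate 1 (-3.00), Gli2 is level, and all 3 PNP spots of Smo are open.

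Over the 6 tested members 2 differences were positive and 4 negative, with a median of -0.04. Over all genes tested 63.0% were positive and the median was 0.04, and the middle 90% of differences lay between -0.23 and 0.30. Gli1 alone among the members lay outside that range. For 5 of the 6 members the 95% interval excluded a 2-fold change in either direction, as it did for 97.9% of all genes. Among all genes with an unadjusted p below 0.05, 77.1% were higher with PNP; this share fell to 47.4% under median scaling, and it was 61.1% with quantile normalization and 61.6% with the table of normalized values that the authors deposited. Relative to the median of all genes, Ptch1 stood at 0.20, Boc at 0.03, Gli2 at -0.05, Sufu at -0.11, Gli3 at -0.14 and Gli1 at -0.46.

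**Figure D3:**
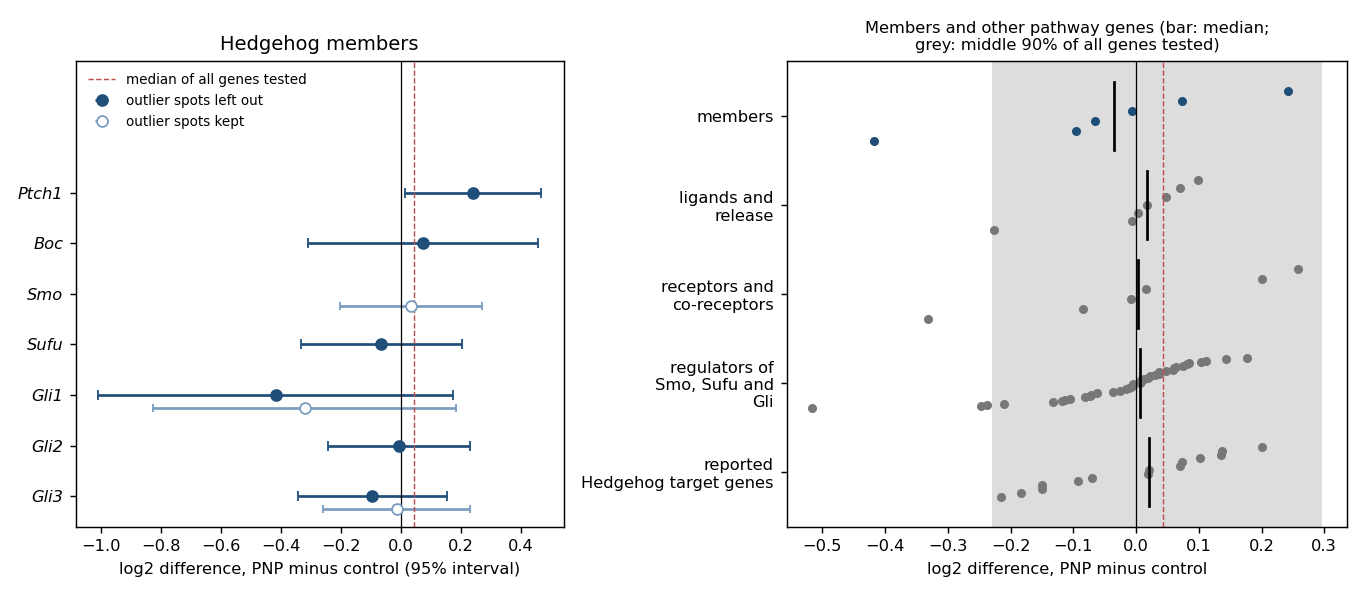
Left, log2 difference (PNP minus control) with its 95% interval for the members above background, with outlier spots left out (filled) and kept (open, for Smo, Gli1 and Gli3). Right, differences of the 6 tested members and of the tested genes of 4 other lists of the pathway, with bars at the medians, a dashed line at the median of all genes (0.04) and the middle 90% of all genes in grey; only Ptch1 has an interval that leaves out 0, and Gli1 has the widest.

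The rest of the pathway was read from 4 lists with 79 further genes, of which 65 were tested. Of those 65, 0 passed, 1 was higher and 1 was lower at an unadjusted p below 0.05, and the median difference was 0.0072. Over all genes tested the shares were 0% passed, 5.02% higher and 1.49% lower, and the median difference was 0.04. Another 7 were above background in neither group, Shh among them. A further 7 were above background and left out for outlier spots, and with those spots kept their differences ran from -0.26 to 0.16 and 0 passed.

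Ligand genes and genes for release of the ligand had 7 of 9 members tested, with differences from -0.23 to 0.10. Shh, the ligand of limb and neural tube, had no signal above background on any array. Ihh, the ligand of growing cartilage, had 1 of 2 probes above it and a difference of 0.07 (SE 0.12, adjusted p = 0.956). That Ihh probe lay close to the background, with scaled means of -5.04 in controls and -4.97 with PNP. The lowest scaled signals above background ran from -5.60 to -5.33 over the arrays. Hhat, which attaches a palmitate to Hedgehog ligands, differed by -0.23 (SE 0.12, adjusted p = 0.811), and its other probe by 0.18. Scube2, which helps release the ligand, stood at 0.10 (SE 0.10).

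Receptors and co-receptors had 6 of 8 tested, 3 with a positive and 3 with a negative difference. Gpc4, a glypican, differed by 0.26 (SE 0.10, unadjusted p = 0.0328, adjusted p = 0.740 with limma), and Lrp2, an endocytic receptor, by -0.33 (SE 0.14, unadjusted p = 0.0394, adjusted p = 0.740), with -0.14 for its second probe. Cdon, the relative of Boc, stood at 0.02 (SE 0.10) on its brighter and 0.02 on its other probe. Gas1, a further co-receptor, was above background on all 6 arrays, and its spots were marked as non-uniform on every one, so it was not tested. With these kept it had 2.40, 2.38 and 2.46 in controls and 2.82, 2.62 and 2.28 with PNP, which overlapped.

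Regulators of Smo, Sufu and Gli had 39 of 41 tested, 20 positive and 19 negative, with a median of 0.0061. The smallest p-values were those of Numb, an adaptor that promotes Gli1 breakdown, at -0.24 (SE 0.15, adjusted p = 0.878), and Efcab7, part of the complex that holds Evc proteins at the base of the cilium, at -0.13 (SE 0.09, adjusted p = 0.878). Kif7, the ciliary kinesin that steers Gli processing, stood at 0.05 (SE 0.09, adjusted p = 0.960). Reported target genes of the pathway had 14 of 22 tested and a median of 0.02, and 0 passed. Snai1, a regulator of epithelial to mesenchymal change, stood at -0.18 (SE 0.11, adjusted p = 0.869).

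Genes whose profile over the arrays was most like those of Gli1 and Ptch1 were named by the root mean square difference between centred profiles. They were picked from 11110 genes with a value on all 6 arrays, less clone names and predicted genes. For Gli1, over the 5 arrays with a value, these were Lrrc4c (0.04), Prl7a1 (0.05) and Spns2 (0.06), where Gli1 itself varied by 0.37 around its mean. For Ptch1, over 6 arrays, they were Olfr229 (0.02), Siglece (0.02) and Synpo (0.03), where Ptch1 varied by 0.14. With so few arrays many profiles lie close by, and none of these 6 genes had an adjusted p below 0.740.

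**Figure D4:**
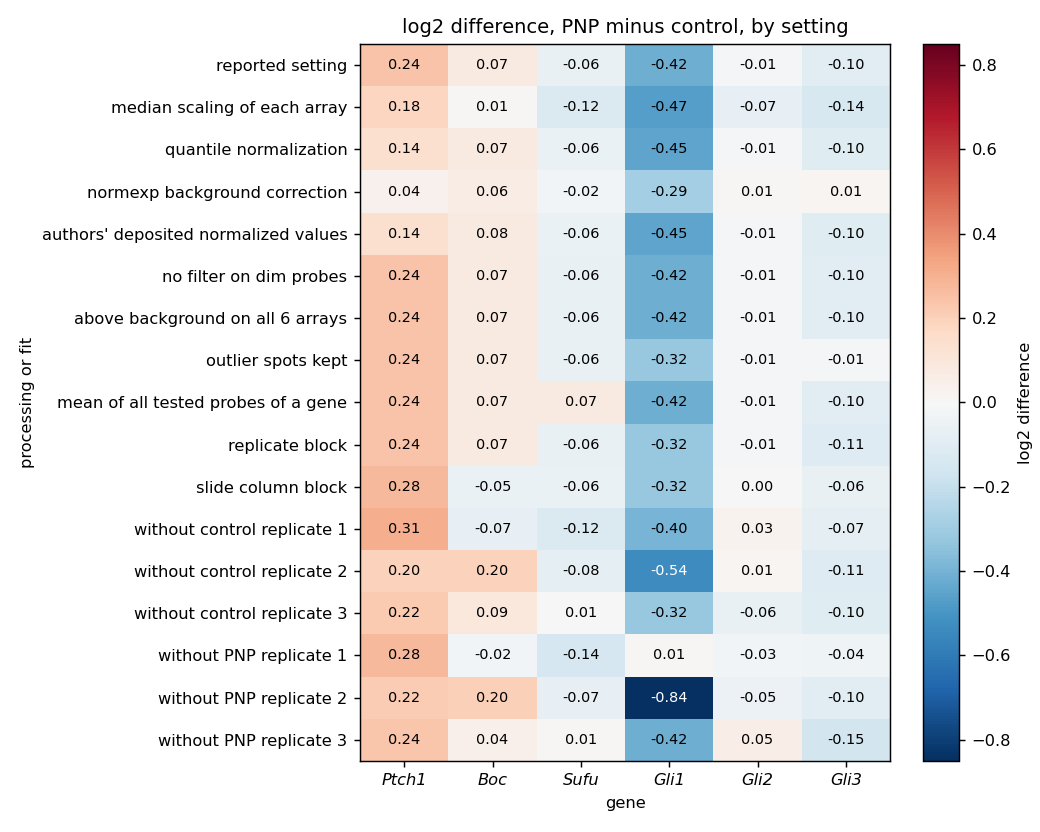
Log2 difference (PNP minus control) of each tested member under the reported setting and 16 alternatives of processing or fit, coloured red for higher and blue for lower with PNP, with the value in each cell. Ptch1 is positive in every row, from 0.04 to 0.31, and Gli1 runs from -0.84 without PNP replicate 2 to 0.0070 without PNP replicate 1.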

How the data were processed

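RNA of 6 TM3 samples was hybridised to single-colour Agilent arrays. The deposited scanner files give intensity values made with Agilent Feature Extraction, version 11.5.1.1 per the file headers and 10.7 per the submitters' processing notes; background and trends within an array were subtracted and low values replaced by a surrogate, per the file headers, and the surrogate understates differences of dim probes. The labels name Cy3, and the files hold red-channel columns alone. The authors' deposited normalized table was found to hold log2 values (each column's r with its own array was at least 0.9996), with equal spread in all columns, as after quantile normalization. The sources used here do not say how that table was made. Its median was 8.27 in each column.

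With R 4.3.3 and limma 3.58.1, log2 processed signal was scaled to each array's 75th percentile, outlier spots were dropped, spots of a probe averaged, and probes tested if well above background on all 3 arrays of a group with at least 2 values per group. Probes were named through accessions in RefSeq's gene list for GRCm38.p6 (33767 of 56605 probes). The array was designed on mm9, per the file headers, so coordinates in that list were not used for probes; the promoter windows and their coordinates are RefSeq's own, from GRCm38.p6. The brightest tested probe stood for a gene. Differences were tested with lmFit and eBayes, Benjamini-Hochberg over 13138 genes, and the code was tested on simulated data. The members, the pathway lists and the rule for named genes (all members; the 2 smallest p-values of each list; Shh, Ihh, Cdon, Gas1 and Kif7; the 3 profiles most like Gli1 and Ptch1, clone names and predicted genes left out) were chosen with earlier results of these data known. Precision is limited by the number of arrays, with a median 95% interval of ± 0.28 (log2) over genes. A gene that the rule names is not reported here.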

Additional observations from a re-analysis of the deposited data

How the results depend on the processing

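Each tested member was refitted under 16 alternatives, and none passed an adjusted p of 0.05 in any of them; Ptch1 kept its direction in all 16 (0.04 to 0.31). Other directions turned, and the cause was not tested. Boc was -0.053 with slide column as a block and ran from -0.072 to 0.20 when each array was left out in turn. Gli1 ran from -0.84 to 0.0070 with arrays left out. Gli2 was 0.013 after normexp and 0.0038 with the slide column block, and ran from -0.065 to 0.055 with arrays left out. Gli3 was 0.015 after normexp. Sufu was 0.074 with its probes averaged and ran from -0.14 to 0.012 with arrays left out. The members' median difference (-0.04) was -0.096 with median scaling, 0.014 after normexp, 0.033 with probes averaged, and from -0.073 to 0.027 with arrays left out. The count of members with an unadjusted p below 0.05 (1) was 0 under median scaling, quantile normalization, normexp, the authors' deposited values and the replicate block, and from 0 to 1 with arrays left out. Of all 13138 genes, 660 were higher and 196 lower at that level as reported. These counts were 314 and 349 under median scaling, 480 and 306 with quantile normalization, and 802 and 183 after normexp. They were 485 and 302 with the authors' deposited values, and 435 and 170 with the replicate block. The count of members whose groups did not overlap (2) was 0 after normexp, 1 with outlier spots kept, and from 2 to 3 with arrays left out. The share of all genes without overlap is not given for these settings, nor are counts over all genes with arrays left out. With only 2 arrays in a group, values separate more easily, so the counts of members are not read as a result. Over all genes, 1 gene (Gm27166, not a member) was called with the slide column block, and from 0 to 1 with arrays left out: Gm27166 without control replicate 2 and 1600027J07Rik without PNP replicate 2, named after their values were seen. With the replicate number as a block (the replicate block), 0 genes were called, and Ptch1 stood at 0.24 (limma, adjusted p = 0.984). The sample labels do not say that this number pairs the samples. Same-numbered deviations correlated at -0.31, -0.22 and -0.03 over genes. These values cannot decide pairing, since deviations within a group of 3 arrays sum to 0. Normexp was run on median spot signals. Where an array was left out, a gene could rest on 1 value in a group, which was then taken to vary like the others. Signal over background limits Ptch1, Dhh, Hhip and Ihh.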
